A study of Danio rerio with 6 samples.

Results

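The genes described here encode the proteins of the cytosolic ribosome, the particle that translates messenger RNA in the cytoplasm. They were taken from a zebrafish (Danio rerio) gene count table by symbol: every row whose symbol starts with rpl or rps followed by a digit, with rplp for the stalk proteins and rpsa for the laminin-receptor-like small subunit protein, but without the rps6k kinases and without rps27l. The rule found 83 of 32057 rows under 82 distinct symbols, 48 of the large subunit (rpl) and 35 of the small subunit (rps). Of these, 82 passed the expression filter and were tested among 19889 genes. The symbol rpl37 occurs on 2 rows. The rule also takes in a few genes whose products are not core parts of the ribosome: rps19bp1 encodes a protein that binds Rps19, and rpl7l1 encodes a relative of Rpl7 that acts in making the large subunit.

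Each library came from a single whole embryo at 30 hours post fertilisation (hpf), frozen on its own, with poly-A selected, strand-specific sequencing of its messenger RNA. Of the 6 embryos, 3 carry the genotype label WT and 3 the label 3etv, which the series describes as triple mutants of the Pea3 group of ETS transcription factors, effectors of fibroblast growth factor signalling. The wild types are called WLD301, WLD302 and WLD303 here and the mutants MUT301, MUT302 and MUT303, as in their titles, and values for the 3 embryos of a group are always given in that order. No treatment is named, and the labels give neither the alleles, the strain, the parents nor the clutch. Where nothing says that embryos came from separate clutches, p-values measure the spread between these embryos.

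Ribosomal proteins are made in nearly equal numbers, because each ribosome holds a single copy of most of them. Their messenger RNAs are among the most abundant in growing cells, and in vertebrates they start with a tract of pyrimidines, the terminal oligopyrimidine (TOP) motif, through which their translation is controlled together. Zebrafish mutants of several ribosomal protein genes stabilise the p53 tumour suppressor and develop small heads and other growth defects.

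The gene counts ran from 17570505 to 25512862 per library, and each mutant library was smaller than each wild-type library. As a check of the labels, etv5b (log2 fold change -1.34), etv5a (-1.01) and etv4 (-0.48) were lower in mutants at adjusted p-values of 1.27e-06, 1.82e-05 and 0.00923 (edgeR quasi-likelihood test with Benjamini-Hochberg adjustment), while etv1 was not called (log2 fold change 0.28, adjusted p = 0.191). All 11 marker genes of the tissues of a whole embryo, from elavl3 of neurons to mpx of neutrophils, had counts in every library. Of these markers, hbae1.1, an erythroid globin gene, was higher in mutants (log2 fold change 0.84, edgeR adjusted p = 0.00257) and apoa1b, an apolipoprotein gene of the yolk layer, was lower (-0.71, edgeR adjusted p = 0.00423). The other erythroid globin marker, hbbe3, was not called (0.27, edgeR adjusted p = 0.173). WLD302 stood apart in the ribosomal protein genes. Compared over their rows alone, counts gave a chi-square per degree of freedom of 229 between WLD301 and WLD302 and 291 between WLD302 and WLD303, but 22.1 between WLD301 and WLD303, and from 16.1 to 36.9 between mutants. Over all genes the larger values were those with WLD303. They were 37.6 with WLD301 and 49.0 with WLD302, against 20.1 between WLD301 and WLD302 and 6.32 to 9.56 between mutants. Because of its place in the ribosomal protein genes, values without WLD302 are given beside the results that rest on it.

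Ribosomal protein transcripts took up a larger part of the mutant libraries. They held 9.755%, 7.52% and 9.28% of the gene counts in the wild types, and 10.2%, 10.8% and 11.4% in the mutants. The groups did not overlap, but the highest wild type and the lowest mutant were close. The 95% Wilson interval, which covers counting error only, was 9.74 to 9.77% for WLD301, the highest wild type, and 10.19 to 10.22% for MUT301, the lowest mutant. The mean share was 8.85 ± 1.18% (SD, n = 3) in wild type and 10.8 ± 0.615% (SD, n = 3) in mutants, a ratio of 1.22.

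In CPM, counts scaled to a common library size, with TMM factors that align the libraries on the bulk of their genes, the summed level was 96507, 74502 and 87456 in the wild types and 100913, 111243 and 121012 in the mutants. The ratio of the group means was 1.29. A two-sided exact permutation test gave p = 0.1, the smallest that 3 embryos against 3 can give, so this design cannot pass 0.05. Without WLD302, the lowest of the 6, the ratio was 1.21 on the CPM scale and 1.13 as a share of gene counts (exact permutation p = 0.2 for each, with 0.1 the smallest possible for 3 against 2). In whole embryos, more cells with many ribosomal transcripts and more such RNA per cell cannot be told apart.

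**Figure D1:**
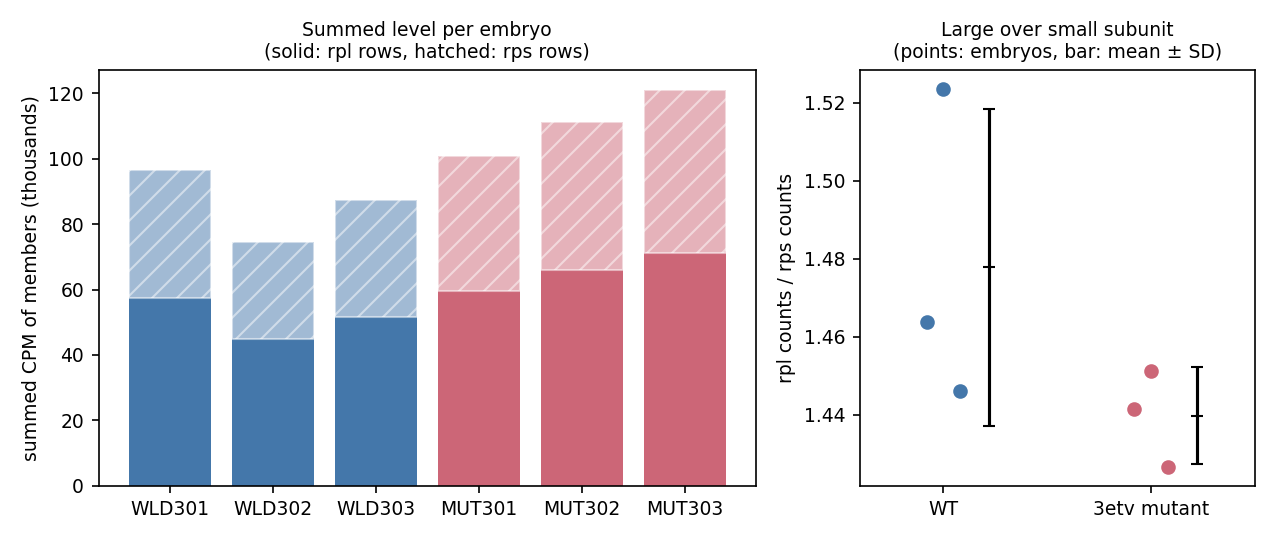
Left, the summed TMM-scaled CPM of all 83 rows in each of the 6 embryos, stacked by subunit (solid for rpl rows, hatched for rps rows). Right, the ratio of rpl to rps counts in each embryo with the mean and SD of each group; the mutant bars at left all exceed the wild-type bars, and WLD302 has the lowest sum and the highest ratio.

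The difference was spread over nearly all the genes. Of the 82 tested, 80 had a positive log2 fold change in the edgeR fit over all genes, against 9802 of 19889 genes tested. At an adjusted p under 0.05, 40 ribosomal protein genes were called higher in mutants, where 12.6% of all tested genes were called higher, 26% in either direction, and 17% higher among those averaging 100 CPM or more. In edgeR none was called lower, where 13.5% of all tested genes were, and none of the 82 was lower at an unadjusted p under 0.05. The DESeq2 Wald test and limma-voom likewise called none lower, and called 57 and 47 higher. In 52 of the 82, each mutant was above each wild type, where 21.7% of all tested genes and 28.2% of those averaging 100 CPM or more showed that separation, and 42.9% of all tested genes were separate in either direction. The median log2 fold change was 0.36, or 1.28-fold, against -0.0068 over all tested genes.

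How many genes crossed the threshold depended on single embryos. The count of 40 of 82 became 12 without WLD302, 11 without WLD303, 8 without MUT302 and 5 without MUT303. It was 58 without WLD301 and 51 without MUT301. In the same order, 9.93%, 8.14%, 8.75%, 8.38%, 11.2% and 10.5% of all tested genes were called higher in those fits. Without MUT302 the calls of the family were thus near the share over all genes, and without MUT303 below it. The median log2 fold change moved less, from 0.26 without WLD302 to 0.45 without WLD301. Scaled by library totals alone, 17 were called higher, where 8.65% of all tested genes were, and the median was 0.28. On that scale 34.2% of all calls were higher in mutants, against 48.3% with TMM factors. Reads with several alignments, which are not in the gene counts, were 6.25 ± 0.213% of all reads in wild type and 5.26 ± 0.101% in mutants (SD, n = 3). Genes with near-identical copies lose such reads. Reads with no feature were 53.6 to 54.3% in the wild types and 55.3 to 55.4% in the mutants, without overlap. Mitochondrial genes held 3.91 ± 0.437% of gene counts in wild type and 4.68 ± 0.340% in mutants, with overlap. The part of these shares in the result was not tested.

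**Figure D2:**
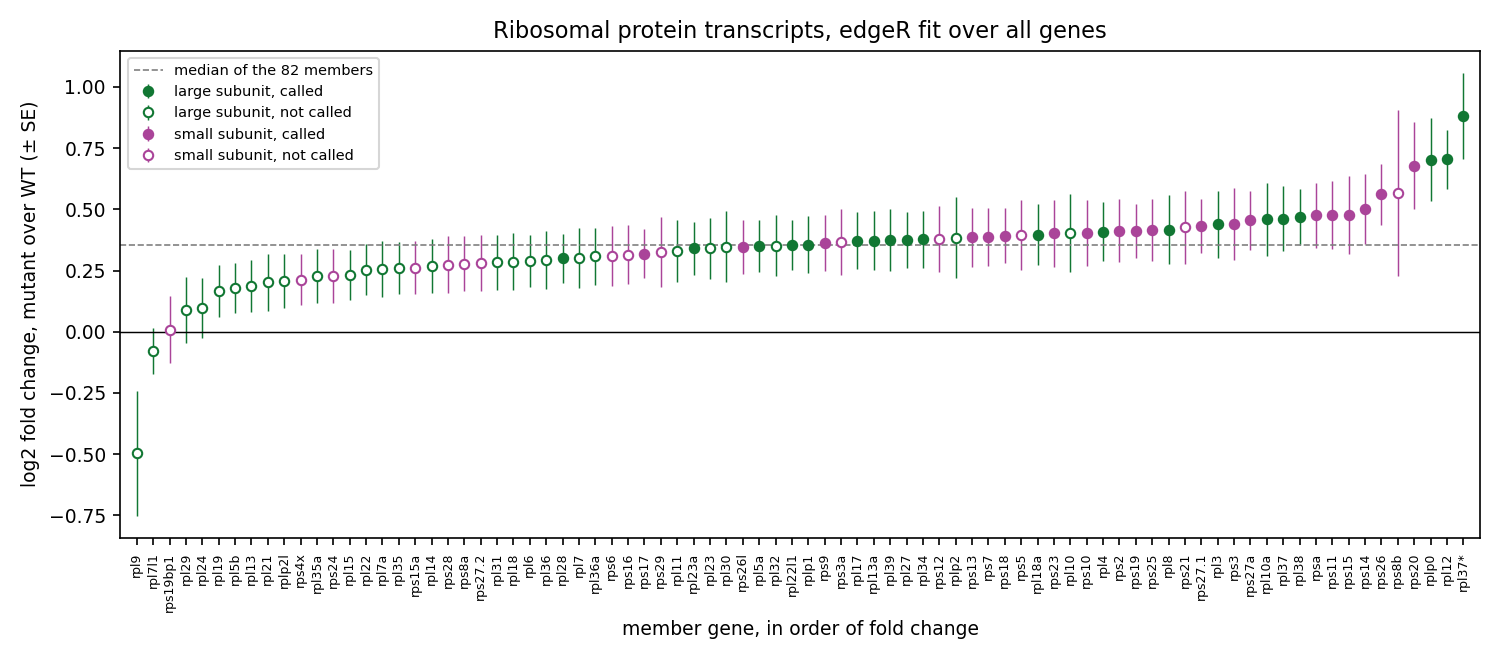
The log2 fold change of each of the 82 tested ribosomal protein genes in mutants over wild type with its standard error, in ascending order. Filled points were called at an adjusted p under 0.05; nearly all points lie above 0 and most close to the dashed median of 0.36, with rpl9 far below it and rps20, rplp0, rpl12 and the low-count second rpl37 row (rpl37*) above.

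The changes were alike in size. Their standard deviation over the 82 genes was 0.17 on the log2 scale and their interquartile range 0.13, from 0.28 to 0.41. Over all tested genes the standard deviation was 0.72 and the interquartile range 0.55. Genes with few counts widen that spread, so the 1540 other genes averaging 100 CPM or more are the nearer reference: they had a median of 0.03, a standard deviation of 0.40 and an interquartile range of 0.34. Of the ribosomal protein genes, 53 (64.6%) lay within 0.1 of their own median, against 32.4% of those 1540 genes around theirs. Related gene lists, described further below, were closer in spread. The standard deviation was 0.195 for mitochondrial ribosomal protein genes, 0.225 for ribosome biogenesis genes and 0.259 for other translation genes. The shares within 0.1 of their medians were 45.9%, 35.8% and 40.5%. These figures describe the genes and carry no test, since genes of one embryo are not replicates.

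**Figure D3:**
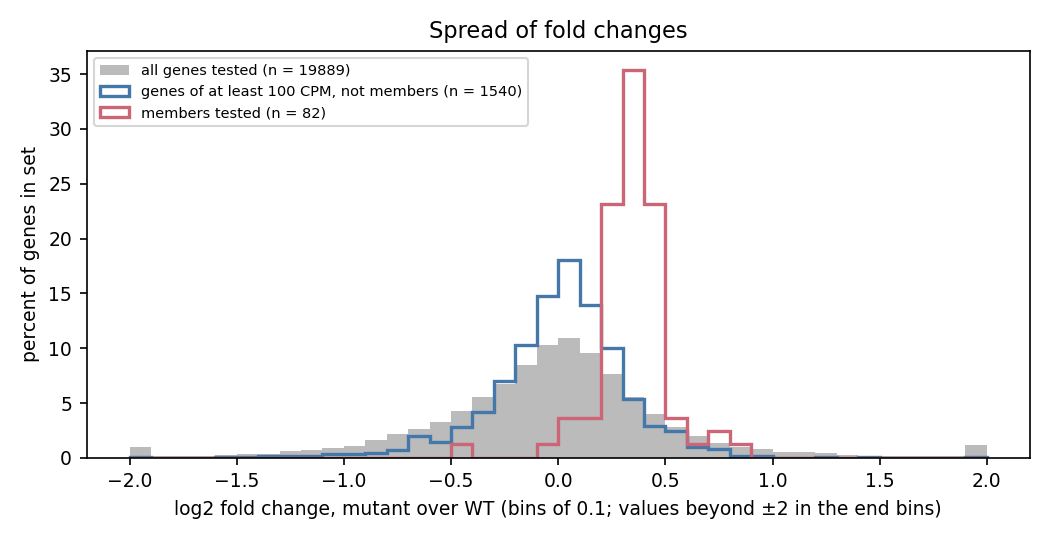
Share of genes, in percent, by log2 fold change of mutants over wild type in bins of 0.1, for all 19889 tested genes (grey), the 1540 other genes of at least 100 CPM (blue line) and the 82 tested ribosomal protein genes (red line). The red distribution is narrower than both others and lies to the right of 0.

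The shift of the family was visible in single embryos, but it was not uniform in all of them. For the 81 genes averaging 50 counts or more, the median log2 CPM relative to the wild-type mean was 0.17, -0.20 and 0.02 in the wild types, and 0.21, 0.37 and 0.48 in the mutants. WLD301 thus lay nearly as high as MUT301. The standard deviation of these values over genes was 0.094, 0.18 and 0.12 in the wild types, and 0.20, 0.15 and 0.17 in the mutants. In WLD302 and MUT301 it was about as large as the median shift. MUT303 was the highest of the 6 in 78 of the 81 genes, and WLD302 the lowest of the 6 in 64.

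Some differences inside a group were as large as those between the groups. MUT303 exceeded MUT301 in 81 of 81 genes, with a median log2 difference of 0.28 and a standard deviation over genes of only 0.093. WLD301 exceeded WLD303 in 78 of 81, by a median of 0.14 (SD over genes 0.12). WLD301 also exceeded WLD302 in 78 of 81, by a median of 0.38, but there the genes differed more among themselves (SD over genes 0.26). WLD302 was therefore not low by a common factor, whereas the mutants differed from each other nearly by one.

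**Figure D4:**
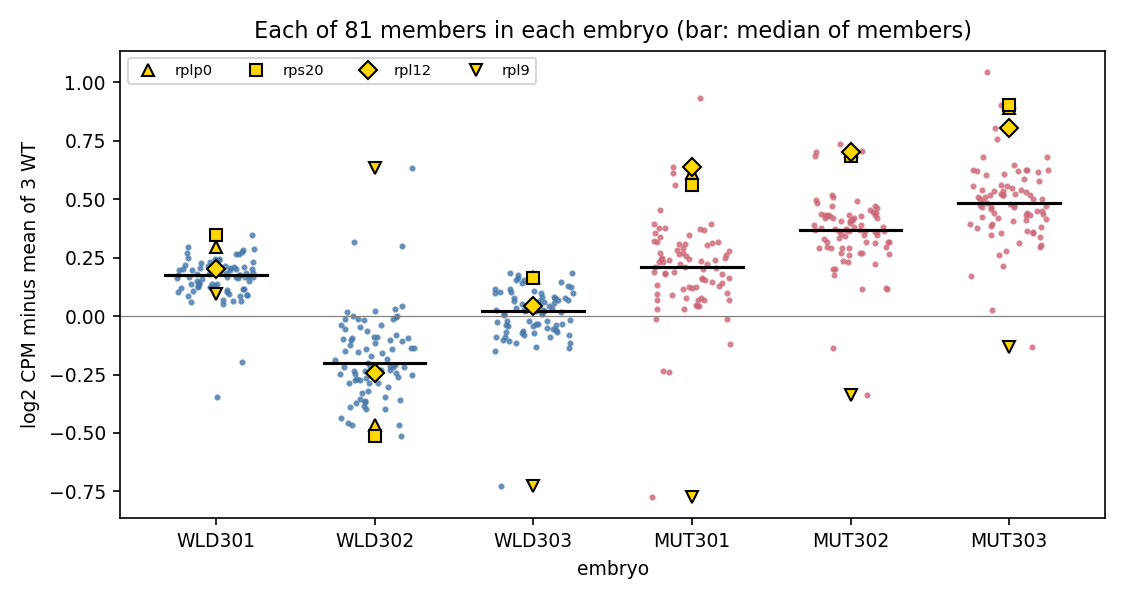
The log2 CPM of each of 81 ribosomal protein genes in each embryo minus that gene's mean over the 3 wild types; black bars are medians over genes (0.17, -0.20 and 0.02 in wild types, 0.21, 0.37 and 0.48 in mutants). The genes move as a band, with rplp0 and rps20 at its lower edge in WLD302, rplp0, rps20 and rpl12 at or above its upper edge in all 3 mutants, and rpl9 outside it in most embryos.

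Genes of the large and small subunits were higher by similar amounts. Of the 47 tested large subunit genes, 20 were called higher, against 12.6% of all tested genes, and the median log2 fold change was 0.34. Of the 35 small subunit genes, 20 were called higher and the median was 0.39. The ratio of large to small subunit counts, which needs no scaling, was 1.46, 1.52 and 1.45 in the wild types and 1.44, 1.45 and 1.43 in the mutants. The groups overlapped (mean 1.48 ± 0.041 against 1.44 ± 0.012, SD, n = 3; two-sided exact permutation p = 0.2). The mean difference of -0.038 was -0.015 without WLD302 and -0.060 without rplp0, the row with the most counts, where the groups did not overlap (exact permutation p = 0.1).

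Within the large subunit, the stalk that recruits elongation factors has Rplp0 at its core, with the acidic proteins Rplp1 and Rplp2 attached, and Rpl12 beside it at the base. The level of rplp0 (ENSDARG00000051783) was 3582, 2116 and 3280 CPM in the wild types, with the lowest value in WLD302, and 4455, 4758 and 5402 CPM in the mutants. Each mutant was above each wild type by a clear margin, and the log2 fold change was 0.70 ± 0.17 (SE, edgeR adjusted p = 0.0101). The level of rpl12 (ENSDARG00000006691) was 1411, 1036 and 1264 CPM in the wild types and 1906, 1995 and 2146 CPM in the mutants, again without overlap. Its log2 fold change was also 0.70 ± 0.12 (SE, edgeR adjusted p = 0.00143). Both genes stayed called in all 15 other settings, with log2 fold changes from 0.50 to 0.85 for rplp0 and from 0.59 to 0.81 for rpl12.

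The other stalk genes had smaller log2 fold changes, but whether they differ from those of rplp0 and rpl12 was not tested. The transcript of rplp1 had a log2 fold change of 0.36 ± 0.12 (SE, edgeR adjusted p = 0.0379), at the median of the family. Whether the rplp1 call holds without single embryos is not given here. Neither rplp2 (0.38 ± 0.17, edgeR adjusted p = 0.107) nor its paralog rplp2l (0.21 ± 0.11, edgeR adjusted p = 0.187) was called. In rplp2 the groups overlapped, with 432, 261 and 389 CPM in the wild types and 390, 472 and 552 CPM in the mutants.

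Rpl5 and Rpl11 bind the 5S ribosomal RNA, and the particle they form can also bind Mdm2 and so stabilise p53. Zebrafish has 2 genes for Rpl5. The level of rpl5a (ENSDARG00000020197) was 1448, 1380.0 and 1364 CPM in the wild types and 1613, 1753 and 1977 CPM in the mutants, and the log2 fold change was 0.35 ± 0.11 (SE, edgeR adjusted p = 0.0276). The level of rpl5b (ENSDARG00000015862) was 1427, 1349 and 1314 CPM in the wild types and 1406, 1568 and 1655 CPM in the mutants, and was not called (0.18 ± 0.10, SE, edgeR adjusted p = 0.212). The groups were separate for rpl5a and overlapped for rpl5b. For rpl11 the log2 fold change was 0.33 ± 0.13 (SE, edgeR adjusted p = 0.0735). The rpl5a call was lost without WLD302 or WLD303, without MUT302 or MUT303, and with the replicate number as a block, with adjusted p-values up to 0.118.

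Of the 7 genes for proteins in the wall or at the rim of the tunnel through which new proteins leave, 4 were called higher (rpl4, rpl17, rpl23a and rpl39), against 12.6% of all tested genes, and the 7 had log2 fold changes from 0.17 for rpl19 to 0.41 for rpl4. The level of rpl4 (ENSDARG00000041182) was 2713, 2119 and 2602 CPM in the wild types and 3068, 3279 and 3526 CPM in the mutants, with no overlap (edgeR adjusted p = 0.0251). For rpl3 (ENSDARG00000003599), whose product lies near the peptidyl transferase centre, the values were 2811, 1947 and 2636 CPM in the wild types and 3161, 3290 and 3575 CPM in the mutants, also separate (log2 fold change 0.44 ± 0.14, SE, edgeR adjusted p = 0.032). By contrast, rpl7a (ENSDARG00000019230) overlapped, with 2541, 2071 and 2315 CPM against 2518, 2813 and 2942 CPM, and was not called (0.26 ± 0.11, SE, edgeR adjusted p = 0.116). The calls of rpl3 and rpl4 were lost when WLD302 or WLD303, or MUT302 or MUT303, was left out, and that of rpl3 also with library totals; without WLD302 the log2 fold changes were 0.29 for rpl3 and 0.31 for rpl4.

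In the small subunit, 9 of the 14 genes for proteins of the head and 11 of the 20 for proteins of the body were called higher, against 12.6% of all tested genes, with medians of 0.40 and 0.39. The head gene with the largest change was rps20 (ENSDARG00000036044), at 1200.1, 661 and 1055 CPM in the wild types and 1392, 1514 and 1760.1 CPM in the mutants. WLD302 was again far below the others, and the log2 fold change was 0.68 ± 0.18 (SE, edgeR adjusted p = 0.0148), or 0.46 without WLD302, still called. Without MUT303 the call was lost (edgeR adjusted p = 0.0565, the highest of its 15 alternatives, which started at 0.000795). The transcript of rps27a, which encodes a fusion of ubiquitin with a head protein, had a log2 fold change of 0.46 ± 0.12 (SE, edgeR adjusted p = 0.0156), and rps19, the gene most often mutated in human Diamond-Blackfan anaemia, one of 0.41 ± 0.11 (SE, edgeR adjusted p = 0.0167). WLD302 was the lowest in rps27a and rps19, at 1138.5 and 681 CPM. Whether their calls hold without single embryos is not given here.

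Among the body genes, rps26 (ENSDARG00000037071), whose product sits at the site where messenger RNA leaves the subunit, was at 371, 267 and 322 CPM in the wild types and 434, 447 and 536 CPM in the mutants. Its log2 fold change was 0.56 ± 0.12 (SE, edgeR adjusted p = 0.00609) and stayed called in all 15 alternatives. For rps14 (ENSDARG00000036629) the levels were 1240.1, 822 and 1154 CPM in the wild types and 1386, 1477 and 1691 CPM in the mutants (0.50 ± 0.14, SE, edgeR adjusted p = 0.0222). For rpsa (ENSDARG00000019181) they were 2552, 1853 and 2370 CPM against 2864, 3102 and 3451 CPM (0.48 ± 0.13, SE, edgeR adjusted p = 0.0197). For rps2 (ENSDARG00000077291) they were 3094, 2257 and 2983 CPM against 3610.1, 3648 and 3834 CPM (0.41 ± 0.13, SE, edgeR adjusted p = 0.0321). In these 4 genes the groups did not overlap and WLD302 was the lowest. Without WLD302 the log2 fold changes were 0.45 for rps26, 0.34 for rps14, 0.35 for rpsa and 0.28 for rps2. The calls of rps14 and rpsa were lost without MUT302 or MUT303. The call of rps2 was lost without WLD302, WLD303 or any of the 3 mutants, and with library totals. The gene of the S6 kinase substrate, rps6, was not called (0.31 ± 0.12, SE, edgeR adjusted p = 0.0799).

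To separate the common shift from changes within the family, each gene was also compared relative to the summed ribosomal protein counts of its own library. On that scale the median of all tested genes moved to -0.38 and that of the family to -0.0104, by construction. Relative to the family's sum, 2 ribosomal protein genes were called higher, where 2.63% of all genes were, and 2 were called lower, where 32% of all genes were. The Benjamini-Hochberg adjustment ran over all 19889 tested genes, many of them called because the scale moved them down. An adjusted p on this scale is therefore not a measure within the family alone. In 8 genes each mutant share lay above each wild-type share and in 12 below, where 4.82% and 45.1% of all genes were separate in those directions. The scale tilts these percentages of all genes by construction, so they are no reference for the family. The genes called higher were rpl12 (0.34 ± 0.11, SE, edgeR adjusted p = 0.0284) and rplp0 (0.35 ± 0.12, SE, edgeR adjusted p = 0.0358). The transcript of rplp0 made up 3.71%, 2.84% and 3.75% of the family's counts in the wild types and 4.41%, 4.28% and 4.46% in the mutants. That of rpl12 made up 1.46%, 1.39% and 1.45% in the wild types and 1.89%, 1.79% and 1.77% in the mutants. The groups were separate for both, WLD302 was the lowest, and without it the log2 differences were 0.23 for rplp0 and 0.32 for rpl12, both still called. The lower ones were rpl9 (-0.92 ± 0.28, SE, edgeR adjusted p = 0.019) and rpl7l1 (-0.45 ± 0.14, SE, edgeR adjusted p = 0.0241). The rpl9 shares were 0.0634%, 0.119% and 0.0395% in the wild types and 0.0332%, 0.0408% and 0.0432% in the mutants, so the groups overlapped, and without WLD302 the difference was -0.40 and not called (edgeR adjusted p = 0.156). The rpl9 call was also lost without MUT301, and the rpl7l1 call without WLD303, MUT302 or MUT303. The rplp0 call was lost without any 1 of the 3 mutants, and the rpl12 call without WLD303 or any 1 of the mutants. Next below them, and not called with all embryos, were rps19bp1 (-0.40 ± 0.20, SE), rpl29 (-0.30 ± 0.14, SE) and rpl24 (-0.26 ± 0.12, SE). On this scale rpl24 was called lower without WLD302, and rps19bp1 without WLD301. Those fits also added genes called higher: a row of rpl37 without WLD302, and rps20 without WLD301. The rpl24 shares were 1.32%, 1.24% and 1.33% in the wild types and 1.09%, 1.08% and 1.06% in the mutants, without overlap.

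The genes that stayed behind are of several kinds. The level of rpl24 (ENSDARG00000099104), which encodes a protein at the face between the subunits, was 1270.0, 921 and 1161 CPM in the wild types and 1098, 1204 and 1283 CPM in the mutants. On this CPM scale the groups overlapped, unlike the shares given above, and the log2 fold change was 0.10 ± 0.12 (SE, edgeR adjusted p = 0.598). The level of rpl29 (ENSDARG00000077717) was 650, 585 and 527 CPM in the wild types and 496, 634 and 744 CPM in the mutants, with no difference beyond the spread (0.09 ± 0.14, SE, edgeR adjusted p = 0.669). Of the genes outside the core ribosome, rpl7l1 was at 84.8, 72.2 and 82.7 CPM in the wild types and 73.4, 72.4 and 81.1 CPM in the mutants (-0.08 ± 0.093, SE, edgeR adjusted p = 0.567). For rps19bp1 the log2 fold change was 0.0090 ± 0.14 (SE, edgeR adjusted p = 0.97). These 4 genes and rpl9 were chosen after their values were seen.

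A few rows held far fewer counts than the rest of the family. The row of rpl9 (ENSDARG00000037350) held 1330, 2289 and 800 counts in the wild types and 665, 771 and 958 in the mutants, with WLD302 far above WLD303, and had a log2 fold change of -0.50 ± 0.25 (SE, edgeR adjusted p = 0.168). Among the fits that left out an embryo it was called lower in the one without WLD303. The row of rps8b held between 13 and 37 counts per library. The second rpl37 row (ENSDARG00000076360) held 101, 189 and 139 counts in the wild types and 223, 167 and 223 in the mutants, and was called higher (0.88 ± 0.18, SE, edgeR adjusted p = 0.00354). The main rpl37 row (ENSDARG00000034291) was called higher as well (0.46 ± 0.13, SE, edgeR adjusted p = 0.0233). WLD302 was the lowest in that row, at 536 CPM, and whether its call holds without single embryos is not given here. The row of rpl26 held 1, 1 and 2 counts in the wild types and 0 in each mutant, under the floor of 3 counts in every library, so no change can be given. Counts of near-identical copies are uncertain, and no level of a ribosomal protein should be read from these rows.

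Several ribosomal proteins are encoded by a pair of paralogs, and the ratio of counts within a pair does not depend on scaling. It can depend on reads with several alignments, which are not counted and which similar copies share. Those reads were 6.10 to 6.50% in the wild types and 5.14 to 5.32% in the mutants, without overlap. Their part in the ratios was not tested. The ratio of rpl5a to rpl5b was 1.02, 1.02 and 1.04 in the wild types and 1.15, 1.12 and 1.19 in the mutants. Every mutant lay above every wild type, WLD302 included. For rps27.1 over rps27.2, which encode the zinc-finger protein Rps27, the ratio was 1.25, 1.18 and 1.26 in the wild types and 1.41, 1.36 and 1.35 in the mutants. For rps26 over rps26l it was 0.592, 0.561 and 0.568 in the wild types and 0.663, 0.627 and 0.710 in the mutants. The ratio of rpl22 to rpl22l1 was lower in mutants, at 1.68, 1.78 and 1.79 in the wild types and 1.56, 1.66 and 1.65 in the mutants.

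Each of these 4 pairs was named because at least 1 of its genes was called. In each the groups were separate. In CPM, 42.9% of single tested genes were separate in either direction, but no such share was computed for ratios within an embryo. The two-sided exact permutation p was 0.1, the smallest possible. The same held for rpl7 over rpl7l1, a pair named after its values were seen because neither gene was called: its ratio was 19.0 ± 1.36 in wild type and 24.9 ± 1.04 in mutants (SD, n = 3). The sizes were modest, with mutant over wild-type ratios of 1.12 for rpl5a over rpl5b, 1.11 for rps27.1 over rps27.2, 1.16 for rps26 over rps26l and 0.928 for rpl22 over rpl22l1. The groups overlapped for rplp2 over rplp2l and for rps8a over rps8b (exact permutation p = 0.6 for each). In all, 7 pairs were compared. Single calls use the same counts as the ratios, and the 4 pairs were named for a call, so the calls are no separate evidence. The gene rps27.1 was called higher (0.43 ± 0.11, SE, edgeR adjusted p = 0.0136) and rps27.2 was not called (0.28 ± 0.11, SE, edgeR adjusted p = 0.0844). Likewise rpl22l1 was called higher (0.35 ± 0.10, SE, edgeR adjusted p = 0.0222) and rpl22 was not called (0.25 ± 0.10, SE, edgeR adjusted p = 0.0897). A call in only 1 gene of a pair does not test whether the changes of its genes differ. Both rps26 and rps26l were called, the latter with 0.35 ± 0.11 (SE, edgeR adjusted p = 0.0372). The rpl22l1 and rps26l calls were lost without WLD302 or WLD303 or without MUT302 or MUT303, and the rps27.1 call without WLD303 or MUT303. The rps26l call was also lost with library totals (edgeR adjusted p = 0.0849) and with the replicate number as a block (edgeR adjusted p = 0.0519).

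**Figure D5:**
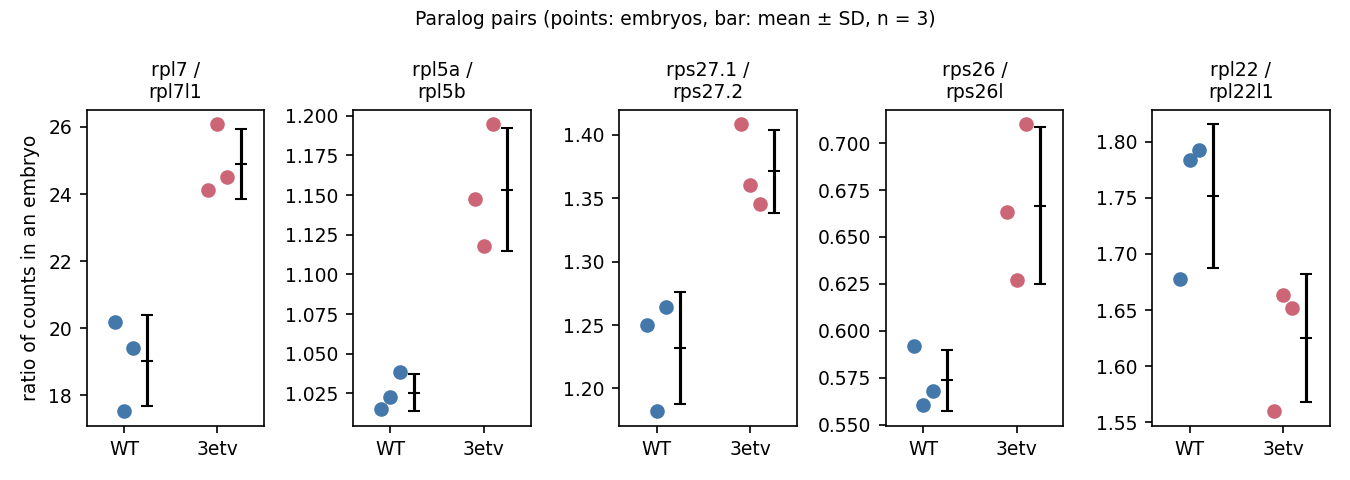
The ratio of counts between 2 paralogs in each embryo, for the 5 of 7 pairs whose groups did not overlap, with the mean and SD of each group; each panel has its own scale. The mutant ratios lie above the wild-type ratios in the first 4 panels and below them for rpl22 over rpl22l1.

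Other genes of protein synthesis were compared to see whether they moved with the ribosomal proteins. From a list of 40 translation factors and other TOP-class genes, 37 were tested; 8 were called higher and 2 lower, against 12.6% and 13.5% of all tested genes, and the median log2 fold change was 0.19. Among the genes called higher, eif3k, a subunit of the initiation factor that binds the small subunit, went from 151, 115 and 140.4 CPM to 230, 231 and 211 CPM (0.72 ± 0.10, SE, edgeR adjusted p = 0.00048). The elongation factor genes eef1g (0.39 ± 0.11, SE, edgeR adjusted p = 0.0214) and eef1a1l1 (0.37 ± 0.13, SE, edgeR adjusted p = 0.0494) rose by about as much as the ribosomal proteins. The nucleolar chaperone gene npm1a fell, from 493, 589 and 522 CPM to 342, 370 and 382 CPM (-0.55 ± 0.097, SE, edgeR adjusted p = 0.00162), as did the initiation factor gene eif4bb (-0.33 ± 0.094, SE, edgeR adjusted p = 0.021). The count of 8 of 37 was 2 with library totals and 4 with the replicate number as a block, where 8.65% and 11.2% of all tested genes were called higher. It was 1 without WLD302, MUT302 or MUT303 and 2 without WLD303, where 9.93%, 8.75%, 8.38% and 8.14% of all tested genes were. In these settings the list did not exceed the share over all genes. It was 10 without WLD301 and 6 without MUT301, where 11.2% and 10.5% of all tested genes were called higher. The eef1g call was lost without WLD302, WLD303, MUT302 or MUT303. The eef1a1l1 call was lost in 9 of 15 alternatives, and the eif4bb call without WLD302 or MUT301 or MUT302.

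Among genes that build ribosomes, calls were mostly in the other direction. Of 81 tested genes for nucleolar assembly factors, RNA polymerase I and Myc proteins, 39 were called lower in mutants and 2 higher, against 13.5% and 12.6% of all tested genes, with a median log2 fold change of -0.27. The largest falls were those of noc2l, nolc1 and noc4l. The transcript of noc2l, whose yeast relative acts in the maturation of the large subunit, went from 72.5, 68.8 and 75.3 CPM to 44.5, 42.0 and 35.9 CPM (-0.82 ± 0.098, SE, edgeR adjusted p = 0.000127). That of nolc1, a nucleolar chaperone, went from 188, 199 and 197 CPM to 117, 123 and 123 CPM (-0.69 ± 0.081, SE, edgeR adjusted p = 0.000122), and noc4l had a log2 fold change of -0.60 ± 0.11 (SE, edgeR adjusted p = 0.00188). The 2 called higher were myca, a Myc transcription factor gene (0.50 ± 0.094, SE, edgeR adjusted p = 0.00261), and ddx21, a nucleolar RNA helicase gene (0.47 ± 0.099, SE, edgeR adjusted p = 0.00481). Another Myc gene, mycb, was called lower (-0.32 ± 0.093, SE, edgeR adjusted p = 0.0239). The remaining Myc genes of the list, mych (0.088) and mycn (-0.037), were not called (edgeR adjusted p = 0.588 and 0.763).

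In noc2l, nolc1 and noc4l all 3 mutants were below all 3 wild types, and WLD302 lay close to the other wild types. The calls of noc2l, nolc1, noc4l, myca, ddx21, eif3k and npm1a held in all 15 alternatives. The count of 39 lower genes was 32 without WLD302, 20 without MUT301 and 21 without MUT302; with library totals it was 47. Under every scaling on all genes the median stayed below 0, from -0.35 with library totals to -0.25 with upper-quartile factors, and the median of the ribosomal protein genes stayed above 0.

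Genes for the mitochondrial ribosome, a separate particle, did not follow the cytosolic family. Of 74 tested, 8 were called lower and 1 higher, against 13.5% and 12.6% of all tested genes, and the median log2 fold change was -0.08. The largest called changes were those of mrpl40 (-0.43 ± 0.12, SE, edgeR adjusted p = 0.0164), mrps15 (-0.43 ± 0.095, SE, edgeR adjusted p = 0.00609), mrpl48 (-0.41 ± 0.14, SE, edgeR adjusted p = 0.0432) and, upwards, mrps2 (0.32 ± 0.11, SE, edgeR adjusted p = 0.0482). Without any single embryo the count of lower genes was between 2 and 5. The mrps2 call was lost without any single embryo other than WLD303, the mrpl48 call without any single embryo other than WLD301, and the mrpl40 call without WLD302 or MUT302. With library totals or the DESeq2 Wald test the mrps2 call was also lost, and with upper-quartile factors the mrpl48 call.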

How the data were processed

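Messenger RNA was sequenced from 6 single zebrafish embryos (3 WT, 3 3etv). The deposited table holds raw counts per Ensembl gene from poly-A selected, stranded libraries, per the labels. STAR, HTSeq and build GRCz11 are named, per the submitters' processing notes; versions, annotation release and strand setting are not given in the sources used here, so counts of overlapping or antisense genes and near-identical copies are uncertain. The header has a space for a tab between 2 mutant columns; columns were matched to titles by name. Rows that name no gene were left out: of all reads listed, 53.6 to 55.4% had no feature and 5.14 to 6.50% several alignments.

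In R 4.3.3, edgeR 4.0.16 (filterByExpr, TMM factors, quasi-likelihood test on genotype, Benjamini-Hochberg over all 19889 tested genes, threshold 0.05) gave the calls. SE is the absolute log2 fold change over the square root of F. Alternatives used DESeq2 1.42.0 and limma 3.58.1. Scripts were tested on simulated data. The members and lists were chosen with earlier results of these data known. Named were the 6 members with the highest mean CPM, the 6 largest separate called changes each way among means of at least 50 counts, untested members, paralog pairs with a call, and up to 3 called genes each way per other list; any other name was picked with its values in view. The groups share title numbers, which mark different embryos. No sequence was used.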

Additional observations from a re-analysis of the deposited data

How the results depend on the processing

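The count of 40 ribosomal protein genes called higher was 17 with library totals only, and ran from 5 to 58 when any 1 of the 6 embryos was left out; 0 or 1 (rpl9, without WLD303) was called lower there. With library size set to the summed ribosomal protein counts it was 2 higher and 2 lower, as that scale removes the common change. On that scale, in fits added after seeing the data, leaving out an embryo gave 0 to 3 higher and 1 to 3 lower. With the replicate block it was 30, 29 of them among the 40, and the summed difference had an exact p of 0.25, the smallest for 3 pairs; same-numbered embryos' deviations correlated at -0.0591, 0.0674 and -0.0942, which gives no sign of pairing. The SD of log2 changes was 0.17, 0.44 with no low-count filter, which lets in rpl26, and from 0.15 to 0.21 when an embryo was left out. Leaving embryos out, the genes called higher ran from 1643 to 2266 of all genes tested (8.14 to 11.2%), against 2502 (12.6%). The median change was positive, from 0.26 to 0.45, in every setting but the family's own sum (-0.0104). The mean difference in summed CPM, 24901, ran from 19074 to 30077, and no setting took its exact test below 0.1. For the 32 genes named by rule, 410 of 480 alternative values kept direction and call, 68 lost the call, 2 gained it and 0 changed sign. Causes of these shifts were not tested. Low counts limit what can be read for rpl26, at or under 3 counts, and rps8b. Why these rows held so few counts was not tested.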

Other observations

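The ribosomal protein Rps30 is made as a fusion with a ubiquitin-like protein and falls outside the symbol rule. Its 2 zebrafish genes, chosen after their values were seen, moved in opposite directions. The transcript of faua was at 706, 543 and 619 CPM in WLD301, WLD302 and WLD303 and at 731, 830 and 942 CPM in the mutants (log2 fold change 0.42 ± 0.12, SE, edgeR adjusted p = 0.0226). That of faub was at 19.1, 20.5 and 23.4 CPM in the wild types and 13.5, 14.9 and 14.0 CPM in the mutants (-0.57 ± 0.12, SE, edgeR adjusted p = 0.0039). In both genes the groups did not overlap. Whether the faua and faub calls hold without single embryos is not given here.

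The ribosome-bound scaffold gene rack1 had a log2 fold change of 0.26 ± 0.12 (SE) and was not called (edgeR adjusted p = 0.115). The paralog rps27l, a p53 target in human cells that the symbol rule leaves out, was at 22.6, 28.1 and 49.6 CPM in the wild types and 38.8, 26.1 and 21.1 CPM in the mutants, with overlapping groups (edgeR adjusted p = 0.565).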
